A study of Mus musculus with 38 samples.

Results

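The 10 genes Bmp3, Pla2g2c, Galnt1, Tex2, Dgki, Gria2, Brd9, Tsc22d3, Anxa3 and Ercc6l2 hold, or lie nearest to, the strongest histone-mark intervals of uninduced mouse epidermis that were called at no later time after SOX9 was switched on. They were picked from the 21728 protein-coding genes considered. For each of 2 marks, the D0 (uninduced) intervals that overlapped nothing in any later list were ranked, and the 5 at the top were taken. H3K27ac peaks chose Bmp3, Pla2g2c, Galnt1, Tex2 and Dgki, and H3K4me1 domains chose Gria2, Brd9, Tsc22d3, Anxa3 and Ercc6l2. Each gene was then followed over its body and 50 kb on both sides, which gave windows of 121 to 554 kb and 2.04 Mb in all. Loss of the choosing intervals is thus the criterion of selection and no result.

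Skin cells came from male mice of genotype K14rtTA; TRE-myc-Sox9, in which doxycycline (DOX), given from P21, turns on MYC-tagged SOX9 wherever the Krt14 promoter drives the activator. Basal epidermal stem cells (EpdSCs) were sorted from back skin as negative for CD31, CD45, CD117 and CD140a, high for CD49f and Ly6A and negative for CD34. The times were D0 and 1, 2, 6 and 12 weeks of DOX (W1, W2, W6 and W12), and the W12 cells came from skin of newborns grafted onto immunodeficient hosts, so that time and graft cannot be told apart at W12. The culture lists came from keratinocytes that carried K14rtTA and TRE-myc-Sox9 variants, namely wild-type (WT) SOX9 without and with DOX, and, with DOX, SOX9 without its DNA-binding HMG domain (ΔHMG) or without its transactivation domain (ΔTA). Each of the 10 skin lists of called intervals pooled the replicates of its group, and every skin group had low and high nuclease digests. The 4 culture lists came from 1 low and 1 high digest. The first W2 replicate shared libraries with W12. No spread between replicates was therefore available, no list was tested against another, and the 95% confidence intervals (CI, exact Clopper-Pearson) given for shares cover counting error only.

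H3K4me1 marks primed as well as active enhancers and tends to form broad domains, whereas H3K27ac marks enhancers and promoters in use and forms narrower peaks. An enhancer that is shut down commonly loses H3K27ac first and can keep H3K4me1 for a time. In the skin, SOX9 belongs to hair follicle stem cells, and the interfollicular epidermis is normally without it. The 10 genes are of unrelated kinds: a BMP-family ligand (Bmp3), a glucocorticoid-induced regulator (Tsc22d3), a glutamate receptor subunit (Gria2), lipid and glycan enzymes (Pla2g2c, Dgki, Galnt1), a lipid-transfer protein of membrane contact sites (Tex2), an annexin (Anxa3), and a chromatin and a DNA repair factor (Brd9, Ercc6l2).

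To show what lay under lost H3K27ac, 4 stretches of the GRCm38 plus strand are given. Those of Pla2g2c (chr4:138675995-138676294) and Dgki (chr6:37276945-37277244) are the 300 bases around the summit of the choosing peak, that of Gria2 (chr3:80780966-80781265) surrounds the summit of a D0 peak inside its choosing H3K4me1 domain, and that of Bmp3 (chr5:98854127-98854414) is the stretch of its choosing peak that precedes the first exon. Capitals mark ACAAT (SOX), CACCC (KLF) or TGTGGT (RUNX) on either strand, and the Dgki stretch holds none of them.
Bmp3: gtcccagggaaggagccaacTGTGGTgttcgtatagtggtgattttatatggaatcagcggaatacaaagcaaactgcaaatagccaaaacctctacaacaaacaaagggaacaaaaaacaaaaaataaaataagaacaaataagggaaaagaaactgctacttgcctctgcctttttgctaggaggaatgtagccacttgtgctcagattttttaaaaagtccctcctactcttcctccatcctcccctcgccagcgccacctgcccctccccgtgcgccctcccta
Pla2g2c: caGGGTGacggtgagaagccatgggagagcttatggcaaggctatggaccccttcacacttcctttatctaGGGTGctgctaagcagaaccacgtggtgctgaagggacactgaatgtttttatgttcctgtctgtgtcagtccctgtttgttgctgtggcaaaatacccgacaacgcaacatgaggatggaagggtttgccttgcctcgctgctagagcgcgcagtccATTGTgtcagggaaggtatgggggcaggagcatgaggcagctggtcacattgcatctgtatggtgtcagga
Dgki: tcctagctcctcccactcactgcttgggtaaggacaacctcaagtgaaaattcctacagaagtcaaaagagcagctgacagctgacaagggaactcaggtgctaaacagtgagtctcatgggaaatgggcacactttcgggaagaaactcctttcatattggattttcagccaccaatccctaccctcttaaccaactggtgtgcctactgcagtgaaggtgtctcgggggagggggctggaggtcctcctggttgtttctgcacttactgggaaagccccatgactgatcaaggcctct
Gria2: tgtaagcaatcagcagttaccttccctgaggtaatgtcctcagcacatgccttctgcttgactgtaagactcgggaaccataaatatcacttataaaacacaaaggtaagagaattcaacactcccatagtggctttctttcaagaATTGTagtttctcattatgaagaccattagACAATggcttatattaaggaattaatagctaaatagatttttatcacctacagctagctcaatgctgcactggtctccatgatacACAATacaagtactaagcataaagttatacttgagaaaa

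The letters of 5 motifs were searched on both strands in the 300 bases around each summit. ACAAT was found in 2 of the 5 choosing H3K27ac peaks (Pla2g2c and Galnt1) and in 28.7% of all 30268 D0 peaks. CACCC was in 3 of 5 (Bmp3, Galnt1 and Pla2g2c) and in 57.9% of all peaks. None of the 5 held TGANTCA, the letters of AP1 sites, beside 8.92% of all peaks, or TGTGGT, beside 18.8%. The letters GATAAG, known from sites of GATA factors, were also in none of the 5 and in 7.70% of all peaks. Over all 48 D0 peaks of the 10 windows, 16 held ACAAT, 25 held CACCC, 6 held TGTGGT and 4 held TGANTCA. No peak of the 48 held GATAAG, 0 of 48, which allows a share of up to 6.25%. The printed Gria2 stretch holds ACAAT at 3 places, and the printed Bmp3 stretch, which lies beside the summit window, holds TGTGGT once. A match is a description of letters and not evidence of binding. Repeat-masked bases filled over 50% of the summit window in 4 of the 48 peaks, beside 5.84% of all D0 peaks. Among peaks lost for good this held for 3 of 20 in the windows and for 10.3% of the whole list. Among peaks present in every later list it held for 1 of 8 and for 2.92%. The part of repeats in the losses was not tested.

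The lists held 69439 to 87287 H3K4me1 domains and 29081 to 33985 H3K27ac peaks per time point in skin, and 110589 to 123338 H3K4me1 domains in culture. At 82.3 to 95.9% of the H3K27ac peaks of a list, fold enrichment was the pileup plus 1 over a genome-wide background pileup plus 1. The background recovered from these folds was 0.501 at D0, then 0.299 (W1), 0.425 (W2), 0.677 (W6) and 0.412 (W12). W1 was thus the shallowest and W6 the deepest of these lists, whereas the depth of the H3K4me1 lists is unknown. H3K27ac folds therefore vary with depth too, and the folds given for the genes at different times are not scaled for it. The promoters of all 6 basal epidermal markers carried H3K27ac in every list. Of 10 markers of other lineages none did at D0, W1 and W2, and 1 (Pecam1, endothelial) did at W6 and W12. Where a list has no interval, the mark may be present below what its depth could show.

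The choosing H3K27ac peaks ranked between 2900 (Bmp3) and 5660 (Dgki) of 30268 at D0, with fold enrichments of 18 for Bmp3, 15.3 for Pla2g2c, 14.7 for Galnt1, 13.3 for Tex2 and 12.7 for Dgki. The next peak on the ranked list, at rank 5693 and also with a fold of 12.7, lay in an intron of Wdpcp. The choosing H3K4me1 domains ranked between 12095 (Gria2) and 14961 (Ercc6l2) of 87287 and measured 3000 bp in Gria2, 3800 bp in Brd9, 6800 bp in Tsc22d3, 4000 bp in Anxa3 and 4200 bp in Ercc6l2. The next, at rank 14964 and 3800 bp wide, was intergenic and nearest to the coding gene Lonrf3. At rank 12095 and beyond, the strongest H3K4me1 losses lay well below the top of their list, where 9687 domains had a p-value given as 0. The median width was 2400 bp for all D0 domains and 1200 bp for those lost for good, so that the 5 domains were wide for lost ones. Their choice by p-value and then width favours wide domains, so that nothing is read from this.

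Pileups can be set against the depth of the later lists, although the choosing peaks were taken for high scores, so that their high values were fixed by the choice. The Bmp3 peak had a pileup of 26 fragments at D0, which, scaled by the background, would be 15.5 (W1), 22.1 (W2), 35.1 (W6) and 21.4 (W12). The Dgki peak, the lowest of the 5, had 18 fragments and would have had 10.7 at W1. The smallest pileup called was 3 at W1, 4 at W2 and W12 and 5 at W6. Of 19 member peaks that were absent from all later lists and whose pileup could be read, 10 would have reached the smallest called pileup in every later list. The other 9 would not in at least 1. All 5 choosing peaks are among these 10, which the choice had fixed. The rest of the 10 were peaks of Galnt1, Dgki, Gria2 and Tsc22d3.

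**Figure D1:**
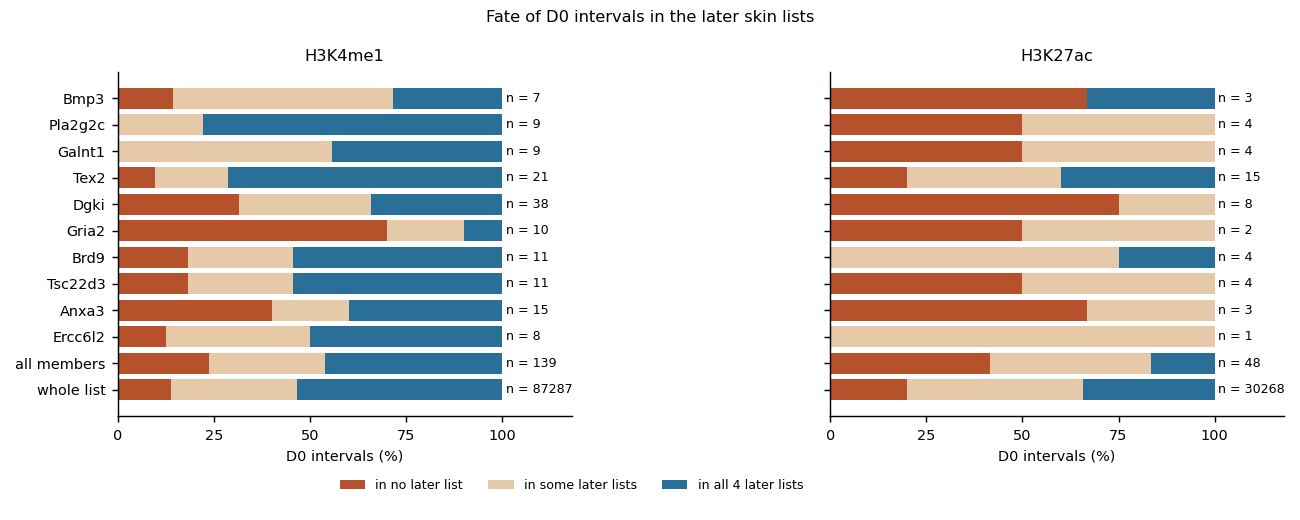
Share of D0 intervals (x axis, %) that were found in no later skin list, in some or in all 4, for each gene window, the 10 windows together and the whole D0 list, with H3K4me1 on the left and H3K27ac on the right; n is the number of D0 intervals. Gria2 lost 7 of 10 H3K4me1 domains and Dgki 6 of 8 H3K27ac peaks for good, whereas Pla2g2c and Galnt1 lost no H3K4me1 domain in this sense.

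Over the 10 windows, 33 of 139 D0 H3K4me1 domains (23.7%, CI 16.9 to 31.7%) were absent from all later lists, beside 13.7% of the whole D0 list. For H3K27ac the count was 20 of 48 (41.7%, CI 27.6 to 56.8%), beside 20.0% of the whole list. These shares contain the choosing intervals. Without them 28 of 134 domains (20.9%, CI 14.4 to 28.8%) and 15 of 43 peaks (34.9%, CI 21.0 to 50.9%) remained. In the mark that did not choose the gene, 15 of 84 H3K4me1 domains were lost for good at the 5 genes chosen on H3K27ac (17.9%, CI 10.4 to 27.7%), and 5 of 14 H3K27ac peaks at the 5 genes chosen on H3K4me1 (35.7%, CI 12.8 to 64.9%). Both intervals include the share of the whole list.

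Step by step, the windows lost 36.0% (W1), 43.2% (W2), 35.3% (W6) and 41.0% (W12) of D0 H3K4me1 domains, beside 27.8%, 32.4%, 26.6% and 31.2% of the whole list. Of D0 H3K27ac peaks, 58.3% (W1), 56.3% (W2), 54.2% (W6) and 70.8% (W12) were lost, beside 37.4%, 38.6%, 37.8% and 53.7%. The name of the W12 H3K27ac list carries a tag that the other lists lack. Its peaks were also the narrowest, with a median of 476 bp. Its call setting may thus differ, and the higher H3K27ac loss at W12 cannot be told apart from that. The 5 choosing intervals of each mark were lost at every time by the rule. Without them the windows lost 33.6%, 41.0%, 32.8% and 38.8% of 134 domains and 53.5%, 51.2%, 48.8% and 67.4% of 43 peaks at W1, W2, W6 and W12. Gains were fewer than losses in both marks, and the CI of every gained share included that of the whole list. H3K4me1 domains without a D0 counterpart made up 5 of 110 (W1), 16 of 104 (W2), 18 of 117 (W6) and 14 of 107 (W12) in the windows. As shares these were 4.55%, 15.4%, 15.4% and 13.1%, beside 5.96%, 20.0%, 17.1% and 15.6% of the whole lists. New H3K27ac peaks made up 38.9%, 33.3%, 33.3% and 51.7% at W1, W2, W6 and W12, beside 41.3%, 40.1%, 39.8% and 56.2%.

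Loss at W1 was not always lasting. Of the 139 D0 domains, 17 were missing at W1 and called again at a later time (12.2%, against 14.2% of the whole list), and 8 of 48 H3K27ac peaks did the same (16.7%, against 17.4%). Present in every later list were 64 of 139 domains (46.0%, against 53.3%) and 8 of 48 peaks (16.7%, against 34.3%), 6 of those 8 in the Tex2 window. The lost domains were also the narrow ones, with a median of 1600 bp against 4800 bp for domains kept throughout, and the same was true of the whole list (1200 against 3600 bp).

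**Figure D2:**
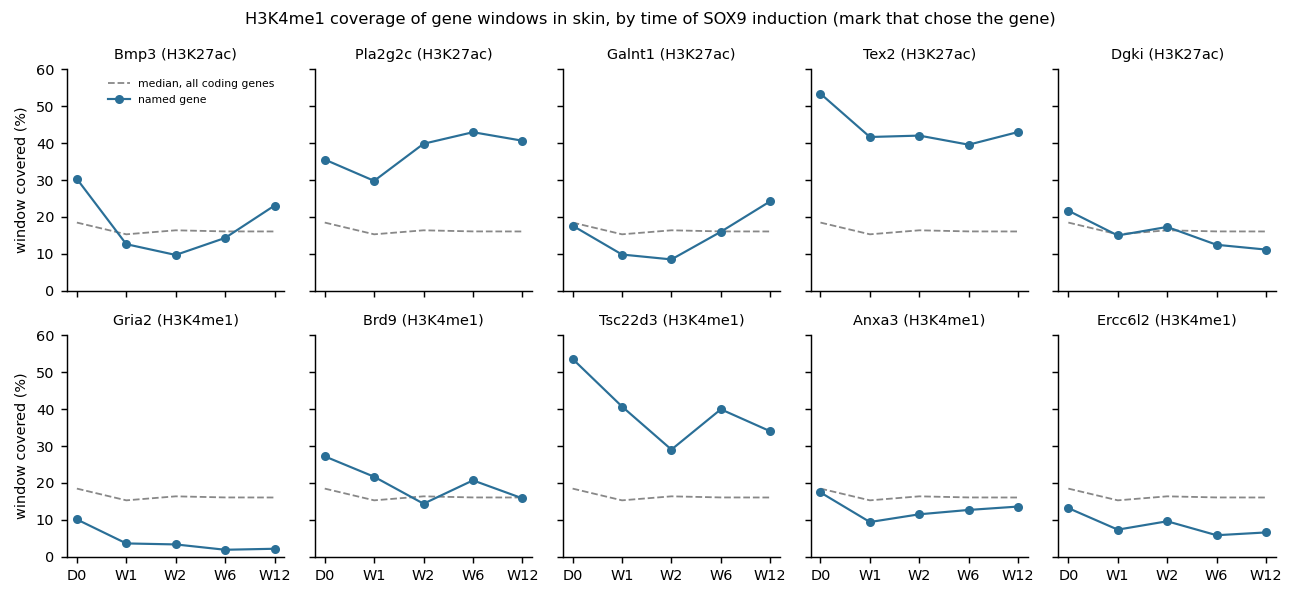
Share of each gene window covered by H3K4me1 domains (y axis, %) at the 5 times in skin (x axis), 1 panel per gene with the mark that chose it in parentheses; the dashed line is the median over the windows of all 21728 coding genes. In 8 of the 10 panels every later point lies below D0, and Pla2g2c and Galnt1 end above it.

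H3K4me1 covered fewer bases later than at D0 in most windows. The median over the 10 windows was 24.5% at D0, then 13.8% (W1), 12.9% (W2), 15.1% (W6) and 19.5% (W12), whereas the median over all coding genes was 18.5%, 15.3%, 16.4%, 16.1% and 16.1%. Coverage was below D0 at all 4 later times in 8 of 10 windows, which held for 40.6% of all coding gene windows. Among the 5 genes whose choice did not rest on H3K4me1, these were Bmp3, Tex2 and Dgki. Covered H3K27ac bases were below D0 at all later times in 7 windows (14.4% of all coding gene windows), of which Gria2, Brd9, Tsc22d3 and Anxa3 were not chosen on H3K27ac. Both marks did so in 6 windows (9.87% of all), namely Bmp3, Dgki, Gria2, Brd9, Tsc22d3 and Anxa3. Every window was chosen for a lasting loss in 1 of these marks, so that these counts were favoured by the choice and nothing is read from them against all coding genes.

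Bmp3 encodes a secreted member of the BMP family that opposes signalling by other BMPs. The choosing peak, chr5:98854127-98856713, was 2587 bp wide and covered the start site, the first exon and its 5′ untranslated part. A peak of higher fold had its near edge at -8213 bp from the start, with folds of 20.7 at D0, then 3.08 (W1), 5.61 (W2), 5.96 (W6, the stronger of 2 pieces) and 17.7 (W12). The upstream element thus stayed in every list, low at W1 to W6 and close to its D0 value at W12, while the promoter peak was called at D0 only. A small peak with a fold of 3.99 lay 899 bp beyond the edge of the choosing peak at W1. H3K4me1 did not leave the promoter. A domain covered at least 97.1% of the choosing peak in all 5 lists, but it was 13000 bp wide at D0 and 4600, 4200, 3600 and 5400 bp at W1, W2, W6 and W12. Window coverage by H3K4me1 was 30.3% at D0, then 12.6% (W1), 9.69% (W2), 14.3% (W6) and 23.1% (W12). Differences at least as far below D0 were found in 0.644% (W1), 1.01% (W2), 2.32% (W6) and 19.3% (W12) of coding gene windows. The window was chosen for a lasting loss, so that nothing is read from these shares. Prkg2 is the only other coding gene in the window.

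Tsc22d3, also known as GILZ, is a leucine zipper protein induced by glucocorticoids that dampens inflammatory signalling. Its choosing domain, chrX:140580401-140587200, lay in an intron 13459 bp from the nearest start and carried no H3K27ac peak at any time. Window coverage by H3K4me1 was 53.6% at D0, the highest of the 10 genes, 40.7% (W1), 29.0% (W2), 40.0% (W6) and 34.0% (W12). The window kept 6 of its 11 D0 domains in all later lists. The widest domain at D0 spanned 25800 bp, began 58259 bp from the 5′ end and was broken into shorter ones later. A D0 H3K27ac peak with a fold of 5.33, 9878 bp into the gene, was lost for good as well. The peak 57531 bp into the gene, within 1000 bp of an annotated start, was called at D0, W1, W2 and W6 with folds of 5.33, 4.62, 3.51 and 7.75 and not at W12.

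**Figure D3:**
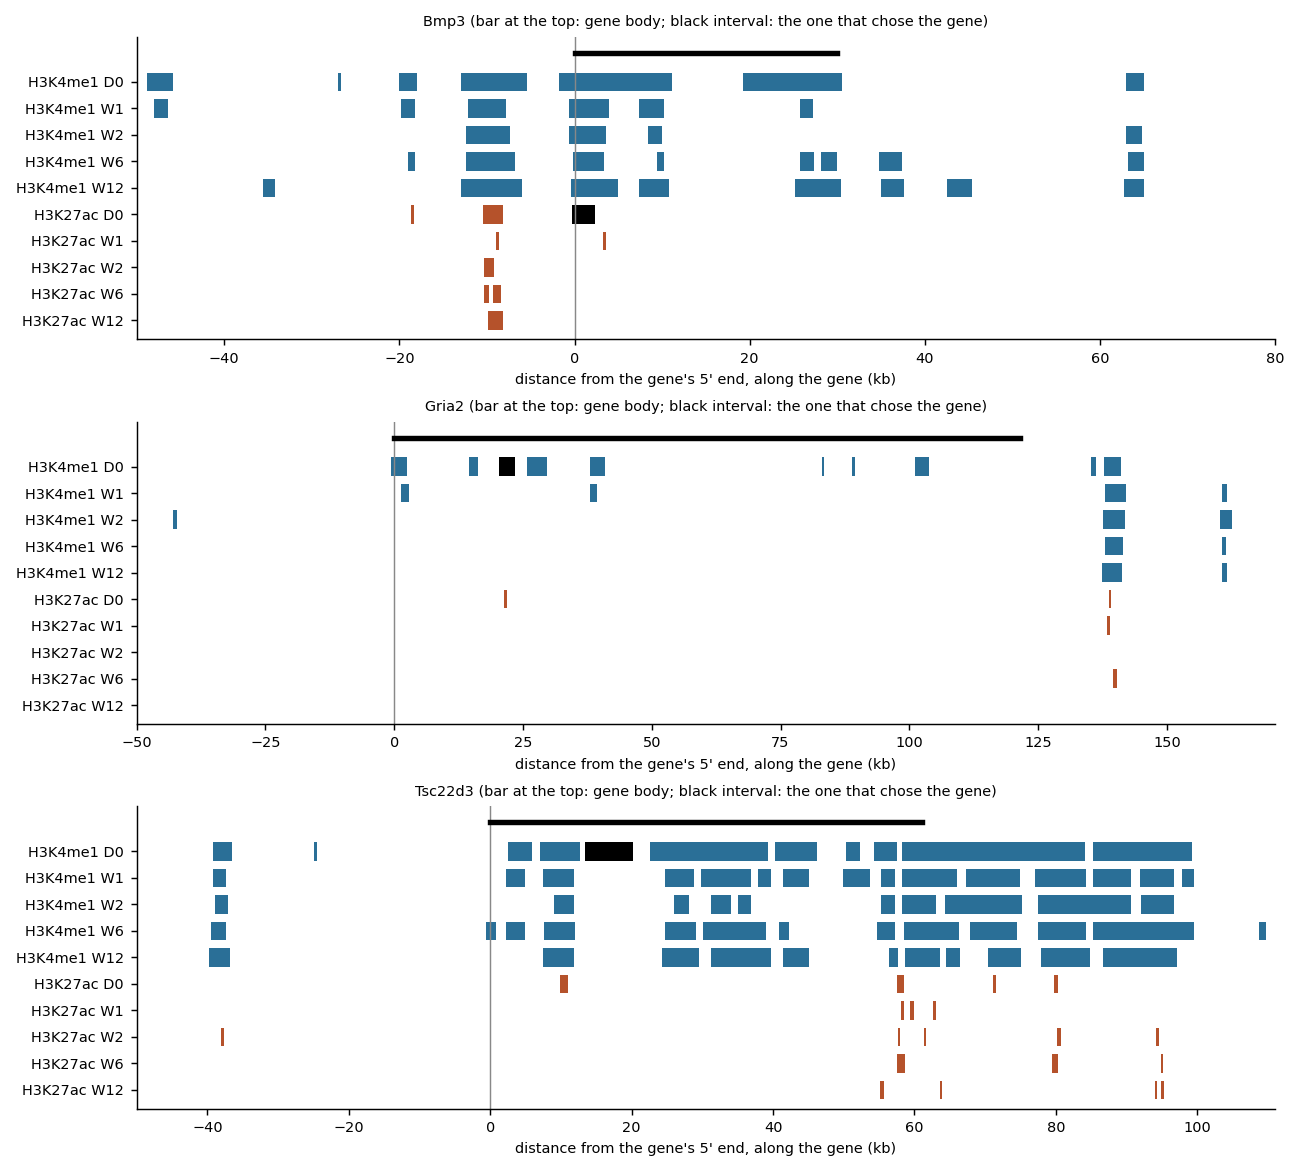
Called intervals around Bmp3, Gria2 and Tsc22d3 by distance from the 5′ end of the gene along its direction (x axis, kb), 1 row per list, with H3K4me1 in blue, H3K27ac in orange-red and the choosing interval in black; short intervals are drawn at least 0.3 kb wide. Around Gria2 the rows after W1 are empty over the gene body, whereas Bmp3 keeps a narrower domain at its start and Tsc22d3 keeps domains at 6 of 11 D0 positions.

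Gria2 encodes a subunit of the AMPA-type glutamate receptor, known mainly from neurons. Its window had the lowest H3K4me1 coverage of the 10 in every skin list. Coverage was 10.1% at D0, then 3.61% (W1), 3.34% (W2), 1.90% (W6) and 2.17% (W12), and of 10 D0 domains 7 were absent from all later lists, 2 more after W1. The choosing domain, chr3:80779401-80782400, lay in an intron 20435 bp from the start, and the nearest H3K4me1 domain was 14601 bp (W1), 62601 bp (W2), 85201 bp (W6) and 84801 bp (W12) away. It was the only choosing H3K4me1 domain with an H3K27ac peak inside it at D0, a peak of 600 bp with a fold of 4.66 that was also absent from every later list. The single domain that stayed in all lists lay 137835 bp from the start, beyond the 3′ end of the gene. An H3K27ac peak close to that domain had folds of 4.66 at D0 and 3.85 at W1, and one of 10.7 was called there at W6 without overlapping the D0 peak. The Gria2 start carried H3K4me1 at D0 and no domain within 1000 bp at any later time, the only such case among the 10 genes.

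Pla2g2c encodes a secreted phospholipase A2, one of a cluster of such genes, and the neighbouring Pla2g2d and Pla2g2f share its window with Ubxn10. The choosing peak, chr4:138675331-138676383, was intergenic and 48409 bp upstream of the start, just inside the edge of the window. The nearest later H3K27ac peak was at least 78236 bp away. H3K4me1 was still called over the choosing peak at W1, W6 and W12, where it covered 93.4% of it or more, and was missing there at W2. H3K4me1 coverage of the window was lower than at D0 at W1 only, with 35.6% covered at D0, 29.8% (W1), 39.8% (W2), 43.0% (W6) and 40.7% (W12). None of its 9 D0 domains was lost for good and 7 were kept throughout. A D0 H3K27ac peak 31058 bp downstream of the start had a fold of 8.0. Its strongest later counterparts had 5.39 at W1, 5.61 at W2 and 11.9 at W6, and none was called at W12.

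Galnt1 encodes an enzyme that starts mucin-type O-glycosylation by adding N-acetylgalactosamine to serine or threonine. The choosing peak, chr18:24206251-24206806, lay in the first part of the gene, 484 bp from the nearest start. A neighbouring peak over the gene's 5′ end had folds of 8.0 at D0, then 8.42 (W2), 7.16 (W6) and 7.79 (W12) and was not called at W1, so that the 5′ end of the gene kept H3K27ac at all times but W1. H3K4me1 covered 37.1% of the choosing peak at D0 and W1, 73.0% at W2 and W6 and 1.08% at W12. H3K4me1 coverage was 17.6% at D0, then 9.81% (W1), 8.49% (W2), 16.0% (W6) and 24.2% (W12), with none of 9 domains lost for good and 5 lost at W2. A difference at W12 at least as far above D0 was found in 4.15% of coding gene windows.

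Dgki encodes a diacylglycerol kinase, which converts diacylglycerol to phosphatidic acid. It is the longest gene of the set, at 454163 bp, and the one with most lost intervals. Of 38 D0 domains 12 were lost for good, and of 8 D0 H3K27ac peaks 6, of which 4 lay between 2030 and 25362 bp from the 5′ end. The choosing peak, chr6:37276861-37277579, lay in an intron 22058 bp from the nearest start. H3K4me1 covered the whole of it in all 5 lists, in a domain of 5600 bp at D0 that measured 4000, 2200, 2000 and 2000 bp later. The strongest D0 peak of the window, 155441 bp into the gene and with a fold of 22.0, had folds of 6.16 (W1) and 6.32 (W2) later and was not called at W6 or W12. Coverage by H3K4me1 was 21.7% at D0, then 15.0% (W1), 17.3% (W2), 12.5% (W6) and 11.2% (W12).

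Tex2 encodes a protein thought to move lipids at contacts of the endoplasmic reticulum. Its window reaches into Ern1 and Pecam1, although the Pecam1 start lies outside it, and was the richest in H3K27ac, with 15 peaks at D0 and 12, 11, 14 and 13 later. The choosing peak lay in an intron 4974 bp from the nearest start. Peaks on both sides of it persisted, and the one 111675 bp from the start, beyond the 3′ end of the gene, had folds of 19.3, 14.6, 14.7, 19.1 and 9.92 from D0 to W12. H3K27ac covered 6.25% of the window at D0, 5.40% (W1), 4.89% (W2), 6.29% (W6) and 4.49% (W12). H3K4me1 coverage was 53.4% at D0 and 41.7%, 42.0%, 39.6% and 43.0% later, although 15 of 21 domains were kept throughout. A domain of 14200 bp covered the choosing peak at D0, none did at W1, W2 and W12, and 1 of 2600 bp did at W6.

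Anxa3 encodes a calcium-dependent phospholipid-binding annexin. The choosing domain, chr5:96807601-96811600, overlapped an exon 14097 bp from the nearest Anxa3 start and had no H3K27ac peak at any time, while a further domain lay between 601 and 1801 bp away in all later lists. Of 15 D0 domains 6 were lost for good, and coverage was 17.4% at D0, then 9.41% (W1), 11.5% (W2), 12.7% (W6) and 13.6% (W12). H3K27ac was sparse. The promoter peak had a fold of 6.66 at D0, was missing at W1 and returned with 4.91 (W2), 5.37 (W6) and 4.25 (W12), and no H3K27ac peak of any kind was called in the window at W1.

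Brd9 is the bromodomain subunit of the non-canonical BAF chromatin remodelling complex. The choosing domain, chr13:73952601-73956400, overlapped an exon of Brd9, but the nearest coding start, 7453 bp away, was that of Zdhhc11. The window also holds Tppp and Trip13. The nearest later H3K4me1 domains were at least 5601 bp away. The promoter peak was present in every list, with folds of 15.3 at D0, then 10.8 (W1), 16.8 (W2), 23.3 (W6) and 7.08 (W12), and was the only H3K27ac peak of the window at W12. Coverage by H3K4me1 was 27.2% at D0, then 21.7% (W1), 14.4% (W2), 20.7% (W6) and 15.8% (W12). The internal domain was thus lost while the promoter stayed marked.

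Ercc6l2 is a SNF2-family ATPase linked to DNA repair. The choosing domain, chr13:63830601-63834800, overlapped an exon 15267 bp from the nearest start, and later domains were at least 6201 bp away. Its promoter carried the only D0 H3K27ac peak of the window, with folds of 18 at D0, then 6.16 (W1), 9.82 (W2) and 13.7 (W6), and no peak was called there at W12. H3K4me1 coverage was 13.2% at D0, then 7.35% (W1), 9.62% (W2), 5.84% (W6) and 6.59% (W12). Of its 8 D0 domains, the choosing one alone was lost for good.

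**Figure D4:**
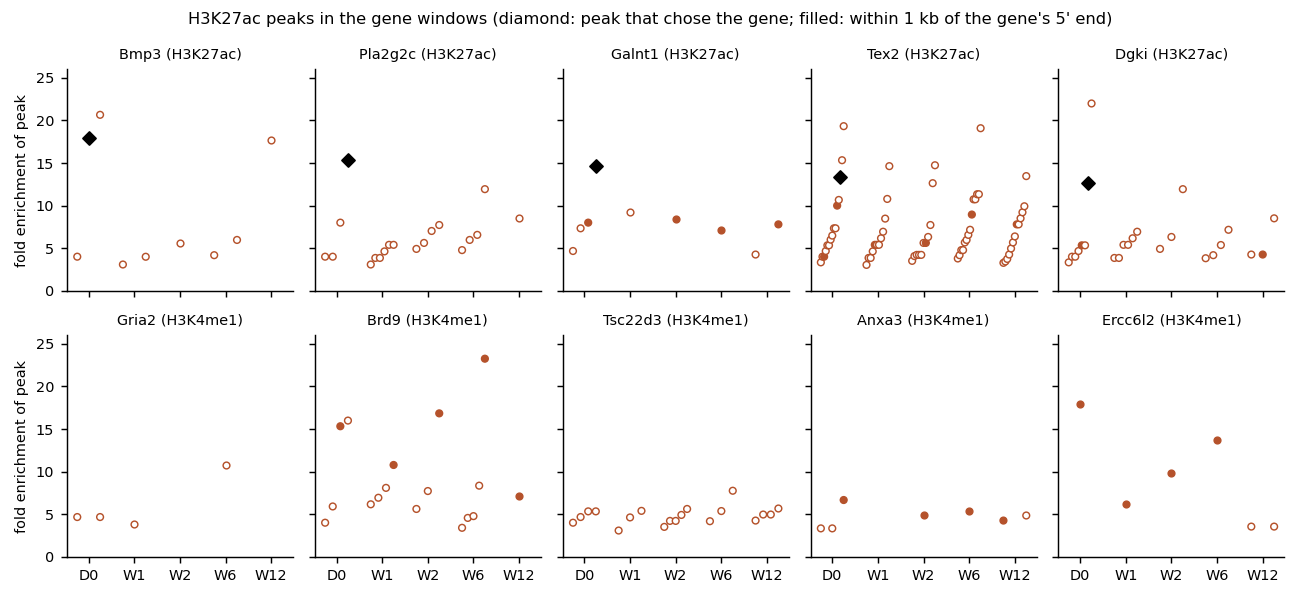
Fold enrichment (y axis) of every H3K27ac peak in each gene window at the 5 times in skin (x axis); diamonds are the choosing peaks, filled circles lie within 1000 bp of the 5′ end of the gene and open circles elsewhere. The promoter peak of Brd9 appears in all 5 lists and that of Ercc6l2 in the first 4, whereas no promoter peak is drawn for Bmp3 after D0.

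At start sites, H3K27ac was within 1000 bp of an annotated start in 8 of 10 genes at D0, 4 (W1), 6 (W2), 6 (W6) and 5 (W12). Over all coding genes the shares were 44.9%, 43.5%, 44.4%, 48.7% and 36.5%. Pla2g2c and Gria2 had none in any list, and Bmp3 had none after D0. Dgki had one at D0 and W12 (folds of 5.33 and 4.25), and Tex2 and Brd9 had one in every list. The D0 count includes the choosing peaks of Bmp3 and Galnt1. H3K4me1 was at the start of all 10 genes at D0 and of 9 at every later time, beside 64.9% to 69.5% of coding genes.

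Whether the other mark was present differed with the mark that chose the interval. All 5 choosing H3K27ac peaks overlapped H3K4me1 domains by 1 bp or more at D0. Later 4 (W1), 3 (W2), 5 (W6) and 4 (W12) still did. At Galnt1 this overlap was partial, with 37.1% of the peak covered at D0 and only 1.08% at W12. Of all 6067 D0 peaks lost for good, 93.0% overlapped H3K4me1 at D0, then 88.6% (W1), 80.3% (W2), 84.2% (W6) and 84.1% (W12). Conversely, only the Gria2 domain among the 5 choosing H3K4me1 domains held H3K27ac at D0, and none did later. Of all 11945 H3K4me1 domains lost for good, 1.10% overlapped H3K27ac at D0 (CI 0.918 to 1.30%), against 39.0% of the domains kept throughout (CI 38.6 to 39.4%). Across the 10 windows 46 of 48 D0 H3K27ac peaks overlapped H3K4me1 at D0, and 44, 40, 43 and 42 of the 48 at W1, W2, W6 and W12.

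**Figure D5:**
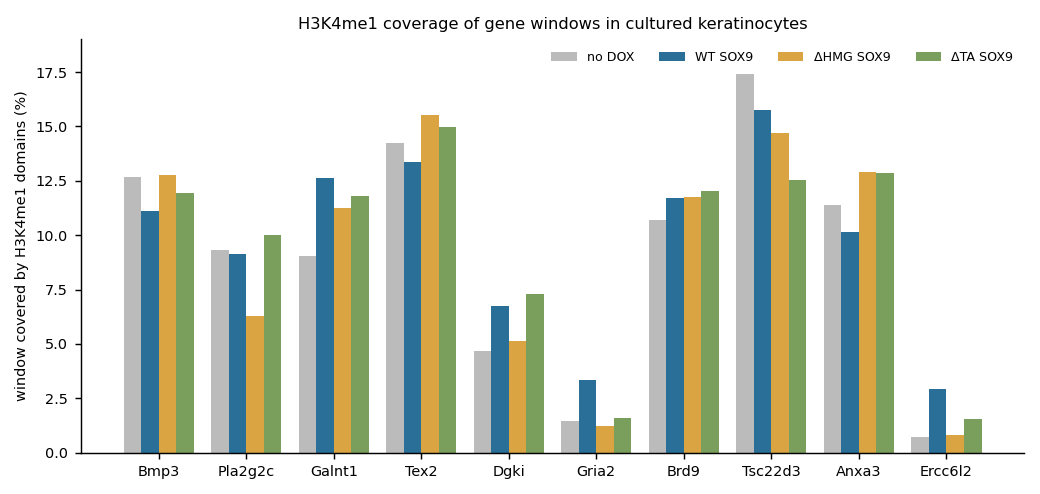
Share of each gene window covered by H3K4me1 domains in cultured keratinocytes (y axis, %, from 0) without DOX and with WT, ΔHMG or ΔTA SOX9, 1 pooled list each. Gria2 and Ercc6l2 have the lowest bars and the bar for WT SOX9 is their highest.

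Culture lists were compared with the list without DOX. With WT SOX9, 37 of 150 domains present without DOX were lost (24.7%, CI 18 to 32.4%), with ΔHMG 18 (12%, CI 7.27 to 18.3%) and with ΔTA 22 (14.7%, CI 9.43 to 21.4%). The whole lists gave 25.1%, 15.6% and 17.5%. Gains were 30.9% with WT, 14.7% with ΔHMG and 20.9% with ΔTA, beside 29.1%, 19.3% and 25.8%. Coverage was above that without DOX in 5 windows and below it in 5 with WT, in 7 and 3 with ΔHMG, and in 8 and 2 with ΔTA. Of all coding gene windows, 52.8%, 49.1% and 56.7% had higher coverage with WT, ΔHMG and ΔTA.

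Some of the choosing intervals themselves were marked in culture. Without DOX, domains overlapped the choosing intervals of Bmp3, Dgki and Anxa3 only. With WT SOX9 they overlapped those of Bmp3, Dgki and Tex2, with ΔHMG those of Bmp3, Dgki, Anxa3 and Gria2, and with ΔTA those of Bmp3, Dgki and Anxa3. Of the 5 choosing H3K4me1 domains this made 1 without DOX, 0 with WT, 2 with ΔHMG and 1 with ΔTA, while of all D0 domains lost for good 22.8%, 18.5%, 24.4% and 24.3% were overlapped. Of the 5 choosing H3K27ac peaks it made 2, 3, 2 and 2, while of all D0 peaks lost for good the shares were 48.9%, 44.4%, 47.9% and 47.9%. At Bmp3 the domain over the lost H3K27ac peak was 3521 bp wide without DOX, 2105 bp with WT, 3913 bp with ΔHMG and 1517 bp with ΔTA. At Anxa3, culture domains covered 13.9% of the choosing domain without DOX, 23.3% with ΔHMG and 3.10% with ΔTA, and none was called there with WT SOX9. H3K4me1 in the Tsc22d3 window covered 17.4% without DOX, 15.8% with WT, 14.7% with ΔHMG and 12.5% with ΔTA, lower with every variant. Dgki, Gria2, Brd9 and Ercc6l2, whose windows had less H3K4me1 coverage than D0 at every later time in skin, had more with WT SOX9 than without DOX in culture, a combination met by 21.4% of coding gene windows. In Brd9 the share was 10.7% without DOX and 11.7%, 11.8% and 12% with WT, ΔHMG and ΔTA, higher with all 3 forms than without DOX. In Dgki it was 4.69% without DOX, 6.77% with WT, 5.16% with ΔHMG and 7.29% with ΔTA. In Gria2 the share went from 1.47% to 3.36% and in Ercc6l2 from 0.707% to 2.94%, with 1.23% and 0.808% under ΔHMG and 1.62% and 1.54% under ΔTA.

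Relatives of the 10 genes, 71 in all, were described by the same counts. In their windows 99 of 796 D0 H3K4me1 domains were lost for good (12.4%, CI 10.2 to 14.9%), beside 13.7% of the whole list. For H3K27ac peaks it was 100 of 390 (25.6%, CI 21.4 to 30.3%), beside 20.0%. Windows of clustered relatives, such as Pla2g2d and Pla2g2f, overlap each other and the Pla2g2c window. Some intervals are thus counted more than once, which the CI does not allow for. H3K4me1 coverage was below D0 at every later time in 28 of 71 relatives and H3K27ac coverage in 13, beside 40.6% and 14.4% of all coding gene windows. The share of H3K4me1 domains lost for good was higher at the member than over its relatives in 5 families and lower in 5. It was higher at Gria2 (7 of 10, relatives 4 of 27), Anxa3 (6 of 15, relatives 6 of 62), Dgki (12 of 38, relatives 15 of 100), Brd9 (2 of 11, relatives 13 of 126) and Tsc22d3 (2 of 11, relatives 20 of 148). It was lower at Bmp3 (1 of 7, relatives 8 of 48), Pla2g2c (0 of 9, relatives 5 of 54), Galnt1 (0 of 9, relatives 11 of 107), Tex2 (2 of 21, relatives 8 of 73) and Ercc6l2 (1 of 8, relatives 9 of 51). The counts of the 5 genes chosen on H3K4me1 include the choosing domain, so that their direction is favoured by the choice. At Brd9 and Tsc22d3 this domain is 1 of the 2 lost, and without it neither share exceeds that of the relatives. Nothing is read from the tally of families. The relatives of Brd9, namely Brd7 and genes of chromatin remodelling complexes, had H3K4me1 coverage below D0 at every later time in 8 of 10 windows. Their median was 30.1% at D0 and 22.6% at W2. This was the highest count of the families, the others having 0 to 4 such windows, and H3K27ac coverage did the same in 2 of these 10. In the other BMP-family genes 5 of 19 H3K27ac peaks were lost for good, and in the glucocorticoid-responsive relatives of Tsc22d3 16 of 72.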

How the data were processed

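MINT-ChIP libraries of H3K4me1, H3K27ac and total H3 were made from sorted EpdSCs, and of H3K4me1 from cultured keratinocytes, 38 samples in all. The submitters' processing notes name Bowtie2 2.2.9, SAMtools 1.9, Picard, MACS2 2.1.1 and SICER 0.0.36. The authors called intervals on pooled replicates (GRCm38), so that no spread between replicates could be computed and no test was run. For skin H3K4me1 the deposited lists give a p-value and a score per domain. For skin H3K27ac and culture H3K4me1 the deposited lists give a fold enrichment, −log10 p and q values, a score and, for H3K27ac, a summit position. The study's methods name MACS2 for H3K27ac peaks and epic2 for H3K4me1 domains. The culture lists have the layout of MACS2 broad output, so that their caller is not settled here, and their conditions were read from the names of the lists. Another 14 deposited files were not used here.

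Intervals were placed in windows of the gene body with 50 kb flanks and compared between lists by an overlap of 1 bp or more, with python 3.11.15, numpy 2.4.6, pandas 2.3.3 and scipy 1.17.1. H3K4me1 domains were ranked by p-value and then width, and H3K27ac peaks by score and then width. A gene was called marked at its start when an interval lay within 1000 bp of an annotated start (GENCODE M21 basic; sequence from RefSeq). Background pileup was recovered from the steps of the fold enrichments. The overlap counts were tested on simulated intervals. Depth is unknown for H3K4me1. The members and lists were chosen with earlier results of these data known, and the pileup, repeat and whole-list checks, and the counts without the choosing intervals, were added after seeing the data. Alternatives were other flanks, overlaps, promoter and motif windows, joined intervals, lists of equal length, intervals above the median of their list, and each gene left out. The sequence of the Tex2 peak is not reported here. The genes named are the 10 members, with others only where a result turns on them.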

Additional observations from a re-analysis of the deposited data

Results flagged for a closer look

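In 4 windows H3K4me1 coverage was below D0 at every later time in skin but above the level without DOX with WT SOX9 in culture. The difference in culture, WT minus no DOX, was 2.07 percentage points in Dgki, 1.89 in Gria2, 1.01 in Brd9 and 2.23 in Ercc6l2. The difference between skin and culture was not tested, since each condition is 1 pooled list, and the cells and the layout of the lists both differ between skin and culture, which cannot be told apart.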

How the results depend on the processing

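Of 485 values recomputed under alternatives for 57 results, 454 stayed within the limit set for them, 29 moved beyond it and 2 changed sign. Leaving out each gene in turn gave 240 of the 485, and all 240 stayed. Dropping 1 gene of 10 could hardly move a share beyond its interval, so that these values say little. For shares this limit was the counting interval, which is wide for shares of the 5 choosing intervals of a mark. For median differences in coverage, which have no such interval, it was a fixed factor of the main value and not a measured spread. With lists of equal length, the H3K4me1 domains lost for good fell to 16.5% in the windows (9.01% of the whole list) and 7.57% in relatives, and those lost at W1 to 22.9% (17.4% of the whole list). With only intervals above the median of their list, H3K4me1 gained at W12 was 5.56% (18.2% of the whole list), H3K27ac lost at W1 40.9% (29.2%) and gained at W12 28.6% (42.3%). Losses for good in relatives were then 8.98% (H3K4me1; 14.1% of the whole list) and 14.5% (H3K27ac; 11.2%), and culture losses 32.9% with WT, 20.7% with ΔHMG and 22.0% with ΔTA (32.9%, 22.6% and 25.8% of the whole list). H3K27ac then overlapped 0 of the 5 choosing H3K4me1 domains at D0 (0%), and H3K4me1 at W6 overlapped 40% of the choosing H3K27ac peaks. Median differences in coverage, in percentage points, were then -0.207 at W1, -0.234 at W2 and -0.265 at W6 for H3K27ac, and 0.753 with WT and 1.34 with ΔTA in culture. With flanks of 10 kb, 44.7% of H3K4me1 domains were lost at W6, and the median differences were -12.6 at W6 and -12.8 at W12 for H3K4me1, 0.0774 with WT and, with the sign changed, -0.0980 with ΔTA. With flanks of 100 kb they were -4.27 at W2 and -4.28 at W12 for H3K4me1, -0.407, -0.242, -0.0419 and -0.492 at W1, W2, W6 and W12 for H3K27ac, 0.645 with WT and, with the sign changed, -0.380 with ΔHMG. The cause was not tested. The counts without the choosing intervals, added once the data had been seen, moved by more than their counting interval in 0 of 10 values. Leaving out each gene in turn gave 20.2 to 26.3% for H3K4me1 domains lost for good and 35 to 51.5% for H3K27ac peaks. No paired analysis was possible because each list pools its replicates. Depth limits the H3K27ac calls most at W1, and it is unknown for H3K4me1.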
